A study of Mus musculus with 6 samples.

Results

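The genes described here are 31 transcription factors that pattern the hypothalamus or mark its nuclei, chosen by name. All 31 were among the 18228 genes of the deposited table, and all 31 were among the 14702 genes with enough reads to be tested. RNA was sequenced from whole hypothalamus of 3 aged mice (22 months) and 3 young mice (12 weeks), drawn at random from 5 per age after a behavioural experiment on cognitive decline. No genotype, treatment, strain or sex was given in the labels, and each library came from a separate mouse. The summed level of 4 Y-linked genes (Ddx3y, Kdm5d, Uty, Eif2s3y) was 184 to 203 CPM (read counts scaled to a common library size) in the aged and 1.38 to 1.88 CPM in the young libraries, so age and sex cannot be told apart in any comparison below.

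The hypothalamus is built from small nuclei, and each nucleus arises from a progenitor domain defined by a combination of transcription factors. Many of these factors stay on in the adult neurons, where they maintain the expression of neuropeptides and receptors. A factor such as Nr5a1 in the ventromedial nucleus or Foxb1 in the mammillary bodies therefore serves as a marker of its nucleus in whole-tissue RNA. The 31 factors were grouped by the nucleus they are best known for: regional Nkx2 factors (3), paraventricular and supraoptic nuclei (3), ventromedial nucleus (3), suprachiasmatic nucleus (3), arcuate and dorsomedial nuclei (6), mammillary bodies (2), lateral hypothalamus with zona incerta and GABA neurons (5), and factors of several regions (6). Several factors belong to more than 1 nucleus, and a group is only a way to order them.

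Upstream sequences from RefSeq's promoter table (build GRCm38.p6) are shown for 3 of the 4 factors called different between the ages, since these genes carry the main results. Each is the 250 bases before an annotated start, on the minus strand, 5′ to 3′, with capitals marking matches to the E-box CANNTG, the core bound by basic helix-loop-helix factors such as Tcf4. For Lhx6, the farthest upstream of 3 annotated starts is shown (chr2:36105409-36105658), for Nkx2-2 chr2:147186403-147186652, and for Pou3f2 chr4:22488367-22488616.
Lhx6: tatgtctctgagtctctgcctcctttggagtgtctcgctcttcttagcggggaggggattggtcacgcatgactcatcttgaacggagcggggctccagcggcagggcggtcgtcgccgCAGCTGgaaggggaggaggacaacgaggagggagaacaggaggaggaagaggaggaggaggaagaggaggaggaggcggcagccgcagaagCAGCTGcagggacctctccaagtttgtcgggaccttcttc
Nkx2-2: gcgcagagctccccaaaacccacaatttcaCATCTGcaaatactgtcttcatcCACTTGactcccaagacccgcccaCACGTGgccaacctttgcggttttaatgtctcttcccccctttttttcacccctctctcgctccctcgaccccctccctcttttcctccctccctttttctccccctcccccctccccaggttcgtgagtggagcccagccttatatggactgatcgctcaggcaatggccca
Pou3f2: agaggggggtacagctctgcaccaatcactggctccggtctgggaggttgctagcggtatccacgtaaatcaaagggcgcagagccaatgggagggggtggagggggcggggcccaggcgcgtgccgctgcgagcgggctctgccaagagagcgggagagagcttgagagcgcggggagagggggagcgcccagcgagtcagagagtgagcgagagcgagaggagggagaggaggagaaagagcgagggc
Promoters of 23 of the 31 factors were in the table, with 27 starts. The window held an E-box at 13 of the 27 starts (48.1%), against 58.5% of 14958 starts of tested genes. The Nkx2 core CAAGTG, read on both strands and itself a form of the E-box, was at 1 of the 27 starts (3.70%), that of Nkx2-2, where it lies on the opposite strand as CACTTG; it was at 9.85% of all starts. The homeodomain core TAATTA and the octamer ATGCAAAT were at 0 of the 27, against 2.66% and 1.22% of all starts. Median GC content of the window was 57.2% for the factors and 59.6% for all starts. These are matches of letters only.

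The libraries held 17208291 to 18884403 counted reads, and each pair of libraries of 1 age differed by more than counting error (chi-square over its degrees of freedom, 4.03 to 12.1). Aged replicate 2 and young replicate 2 stood farthest from the other libraries of their age on that measure. Markers of neighbouring tissue also varied within the ages. The summed CPM of 10 telencephalic factors was 170 in young replicate 2 and 103 to 123 in the other libraries. That of 8 thalamic genes was 297 in young replicate 2 and 124 to 219 elsewhere. That of 8 midbrain genes was 124 and 152 in young replicates 2 and 3 and 38.5 to 57.6 elsewhere, and pituitary Prl stood at 142 CPM in young replicate 3 and 7.18 CPM or less elsewhere. The part of these differences in the results below was not tested, and where 1 library decides a call, the value without it is given beside the result. Without young replicate 2, Lhx6 was higher and Pou3f2 lower; without young replicate 3, Lhx6 and Nkx2-1 were higher and Pou3f2 lower.

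Levels between genes were compared as FPKM, which scales reads to gene length and to library size. Dlx1, a homeodomain factor of GABA neurons, was the highest at a mean of 14.96 FPKM over the 6 libraries, followed by Zic1 at 12.0 and Six3 at 8.39 FPKM. The lowest were Prdm13 at 0.491, Nr0b1 at 0.558 and Lhx9 at 0.802 FPKM. Between them lay Zic2, Isl1, Nkx2-1, Fezf1, Dlx2, Meis2, Otp and Lhx6, from 8.34 down to 5.48 FPKM. In each of the 30 pairs of neighbours in this order, the ranges over the 6 libraries overlapped, so the order holds only between factors that lie well apart. Dlx1 was above 69.6% of tested genes and Prdm13 above 7.08%. The FPKM of Tcf4 (2.26) rests on an implied gene length of 44258 bases, the longest of the 31. Read counts per factor and library ran from 8 (Nr0b1) to 2105 (Tcf4).

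**Figure D1:**
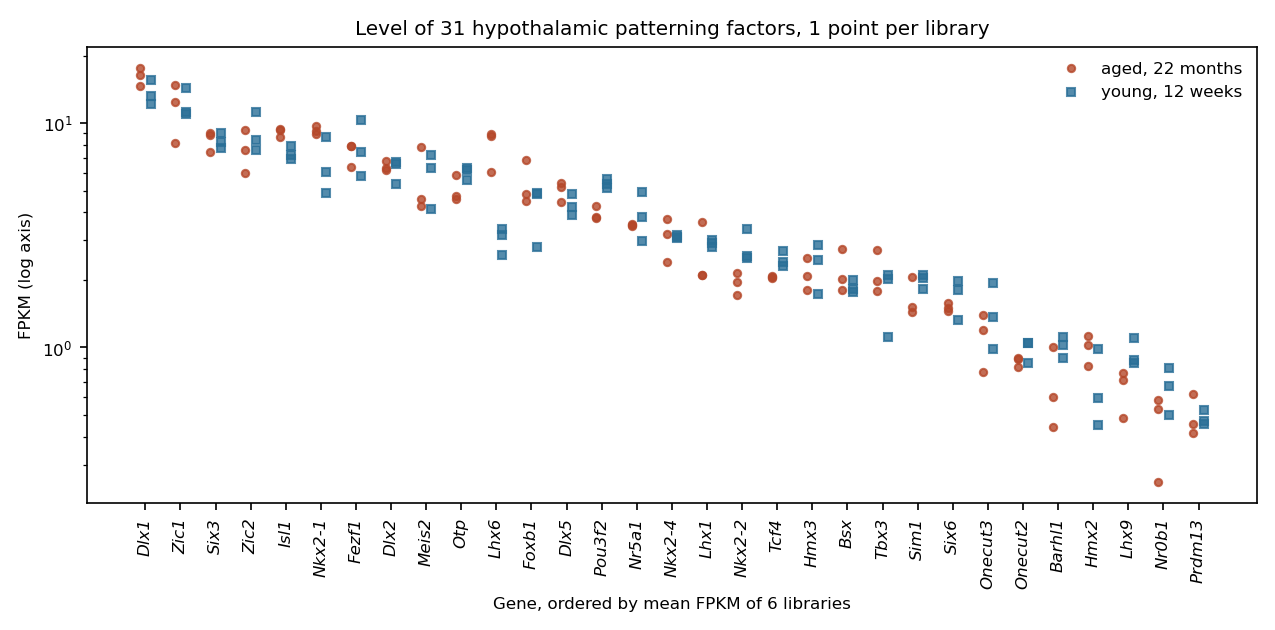
Level of each of the 31 factors in FPKM (log axis), 1 point per library, circles for aged and squares for young, ordered by the mean of the 6 libraries. Levels fall from 14.96 FPKM for Dlx1 to 0.491 FPKM for Prdm13, and the aged and young points of Lhx6 lie apart.

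Of the 31 factors, Lhx6 was higher in aged hypothalamus and Nkx2-2, Pou3f2 and Tcf4 were lower; 27 did not pass (edgeR's quasi-likelihood test, Benjamini-Hochberg adjusted p under 0.05 over all 14702 genes). The 4 called factors are 12.9% of the 31, against 6.86% of all tested genes; 1 of 31 was higher, where 3.22% of all tested genes were, and 3 of 31 were lower, where 3.64% were. In these whole-tissue libraries, fewer cells of a type and less RNA per cell cannot be told apart. The median log2 fold change (aged over young) of the 31 was -0.12, beside -0.00 over all tested genes, with 11 factors above 0 and 20 below. That median was -0.06 without aged replicate 3 and -0.05 without young replicate 1. CPM ranges of the ages did not overlap for 7 of 31 factors (22.6%), against 31.7% of all tested genes; 3 of the 7 were higher and 4 lower in aged, against 15.5% and 16.2% of all tested genes. An unadjusted p under 0.05 was reached by 8 of the 31. The share of all tested genes at that p was not counted. Neither this count nor later ones at that p are read as a result. For 24 of the 27 factors that did not pass, the 95% interval of the log2 fold change lay between -1 and 1, that is, within a doubling or halving. These counts depended on single libraries: 0 to 6 factors were lower and 1 to 2 higher when each library was left out in turn. Without aged replicate 2, Isl1 and Lhx6 were higher and Barhl1, Lhx1, Otp, Pou3f2, Sim1 and Tcf4 lower, and without aged replicate 1, 0 were lower.

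**Figure D2:**
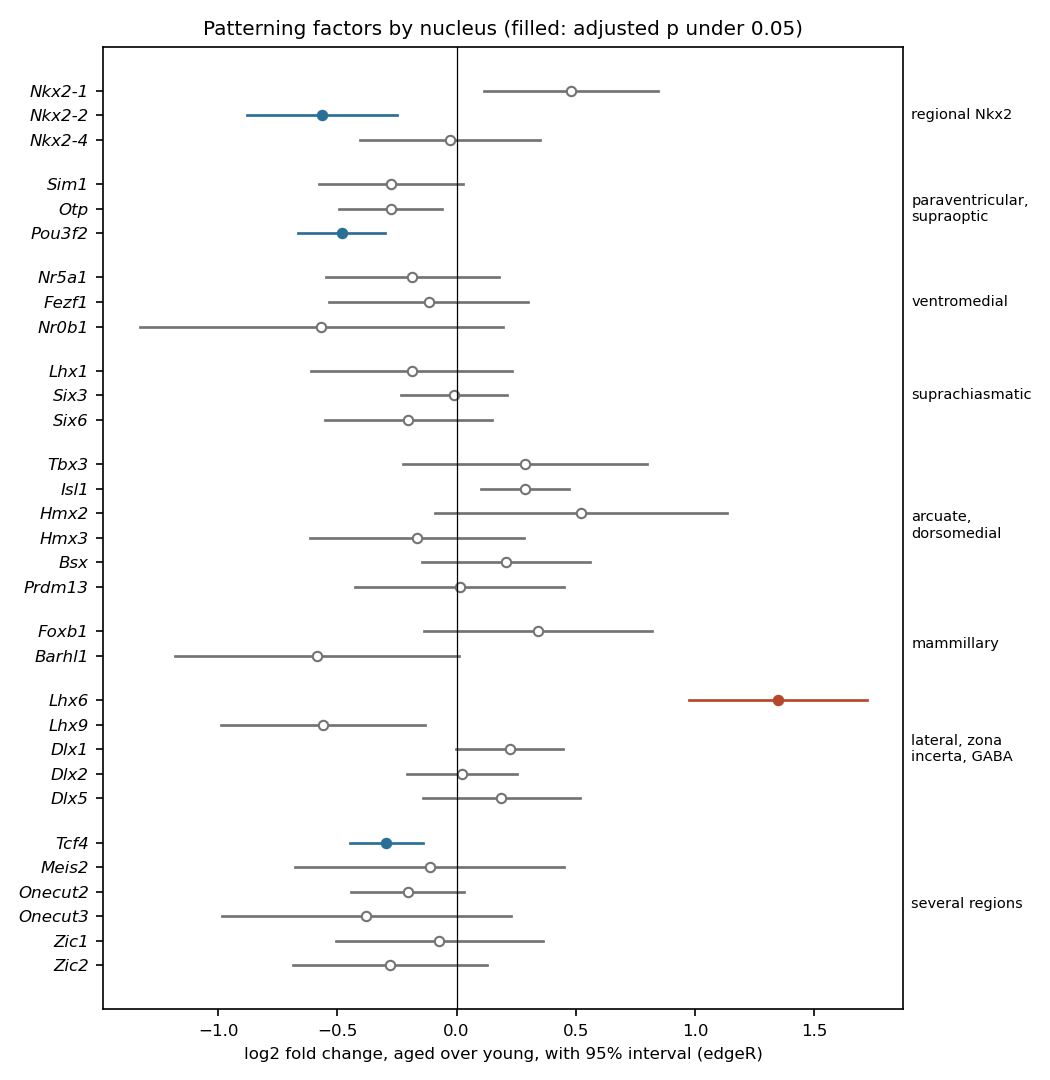
Log2 fold change of each factor, aged over young, with its 95% interval from edgeR, grouped by nucleus; filled points passed at an adjusted p under 0.05 (red higher, blue lower). Lhx6 is the filled point to the right at 1.35, and Nkx2-2, Pou3f2 and Tcf4 are the filled points to the left, at -0.56, -0.48 and -0.29.

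Lhx6, a LIM-homeodomain factor of GABA neurons in the zona incerta and the ventral telencephalon, stood at 33.4, 22.7 and 34.2 CPM in aged replicates 1, 2 and 3. In young replicates 1, 2 and 3 it stood at 13.1, 12.4 and 9.90 CPM. Every aged library was above every young one, and aged replicate 2 was the lowest of the aged. The means were 30.1 ± 6.41 CPM in aged and 11.8 ± 1.68 CPM in young (SD, n = 3 each), a 2.55-fold difference (log2 fold change 1.35 ± 0.17 SE, edgeR adjusted p = 0.00434). The call held in all 18 alternative settings, with log2 fold changes from 1.13 to 1.53. The counts were 437 to 596 reads per aged library and 178 to 224 per young library.

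Lhx8, another LIM-homeodomain factor, of the cholinergic neurons of the basal forebrain and a close partner of Lhx6 in development, was also higher. It stood at 13.4, 7.37 and 15.8 CPM in aged replicates 1, 2 and 3 and at 4.10, 2.47 and 2.45 CPM in young replicates 1, 2 and 3 (log2 fold change 2.01 ± 0.30 SE, edgeR adjusted p = 0.00835). Aged replicate 2 was again the lowest of the aged libraries. The summed level of 7 basal forebrain cholinergic genes (Chat, Slc5a7, Slc18a3, Gbx1, Lhx8 and Ngfr among them), a list chosen after the values of Lhx8 were seen, was 69.9 to 93.4 CPM in aged and 15.7 to 57.6 CPM in young libraries. Of these 7, 3 were higher in edgeR, Lhx8 and Gbx1 among them, and 4 did not pass (2 were higher in DESeq2 and 3 in limma-voom). At an unadjusted p under 0.05, 7 were higher and 0 lower, and none of the 7 was at 0. Lhx8 itself is in these counts and in the sum, so they are not separate from its own result. The part of this marker difference in the result for Lhx6 was not tested.

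Of 13 genes that accompany Lhx6 in GABA neurons, 0 were higher in edgeR (3 at an unadjusted p under 0.05, 1 in DESeq2, 0 in limma-voom). In edgeR and in limma-voom 1 was lower (3 at an unadjusted p under 0.05, 2 in DESeq2). It was Zeb2, a zinc finger factor of migrating interneurons (log2 fold change -0.37 ± 0.07 SE, edgeR adjusted p = 0.0212; lost in 4 of 18 alternatives). Satb1, a chromatin organiser, was next (-0.25 ± 0.07, edgeR adjusted p = 0.0587). Sox6, an SRY-box factor of the same neurons, had the largest log2 fold change of the 13, at -0.51 ± 0.17 SE, without overlap between the ages; it passed in DESeq2 and not in edgeR (edgeR adjusted p = 0.0963). Gad1, which makes GABA, had a log2 fold change of 0.28 and Slc32a1, its vesicular transporter, of 0.18, with edgeR adjusted p of 0.0638 and 0.387; Gad1 was the gene called higher in DESeq2. Pvalb, parvalbumin, and Sst, somatostatin, were with Gad1 the 3 higher at an unadjusted p under 0.05. They had log2 fold changes of 0.39 and 0.22 and did not pass (edgeR adjusted p = 0.0654 and 0.138). The median log2 fold change over the 13 was -0.03, and their summed level was 1694 to 1928 CPM in aged and 1670 to 1747 CPM in young libraries.

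Among the other factors of this group, Lhx9, a LIM-homeodomain factor of orexin neurons, stood at 6.05, 4.05 and 6.52 CPM in aged and at 7.62, 9.59 and 7.23 CPM in young libraries. The ages did not overlap, but the difference did not pass (log2 fold change -0.56 ± 0.19 SE, edgeR adjusted p = 0.103). Dlx1, Dlx2 and Dlx5, homeodomain factors that drive GABA synthesis genes, had log2 fold changes of 0.22, 0.02 and 0.19 and did not pass. Dlx1 and Dlx2 are neighbours on chromosome 2 (GRCm38.p6). Their intervals were -0.00 to 0.45 and -0.21 to 0.25.

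**Figure D3:**
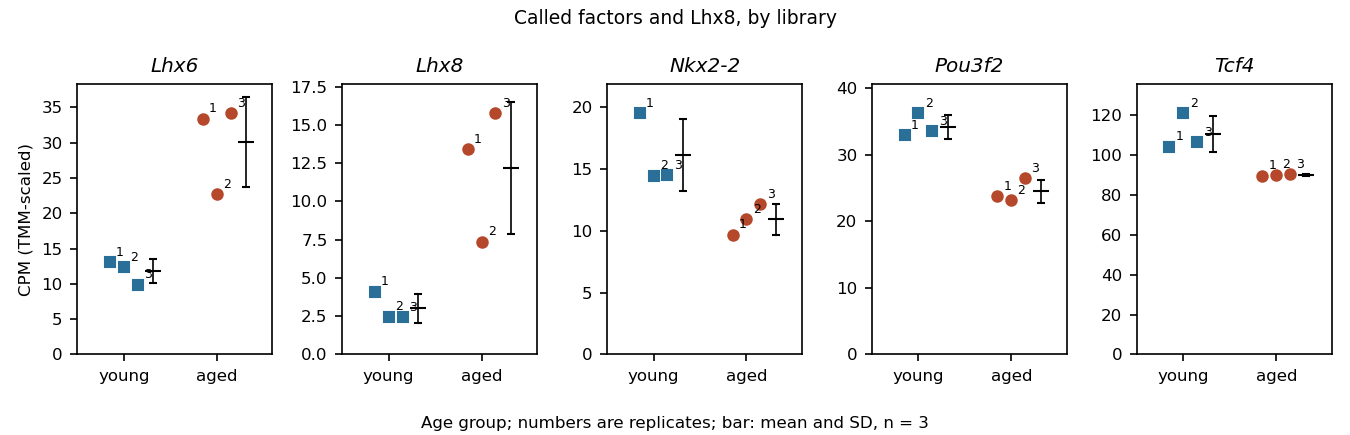
CPM in each library for the 4 called factors and Lhx8, young (squares) and aged (circles), each axis from 0, with replicate numbers beside the points and the mean with SD (n = 3) to the right of each group. The ages do not overlap in any of the 5 panels, and aged replicate 2 is the lowest aged point for Lhx6 and Lhx8.

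Nkx2-2, a homeodomain factor of the boundary between dorsal and ventral hypothalamus that is also expressed in oligodendrocyte precursors, fell. It stood at 9.70, 11.0 and 12.2 CPM in aged replicates 1, 2 and 3 and at 19.5, 14.5 and 14.5 CPM in young replicates 1, 2 and 3. The ages did not overlap, and young replicate 1 was well above the other young libraries. The log2 fold change was -0.56 ± 0.14 SE, a 1.48-fold higher level in young (edgeR adjusted p = 0.0452). The call was close to the threshold and was lost in 12 of 18 alternatives, among them each that left out 1 library (edgeR adjusted p from 0.0560 to 0.149), limma-voom (adjusted p = 0.0516) and both FPKM scales. Of 10 markers of oligodendrocyte precursors and newly formed oligodendrocytes, 3 fell and 7 did not pass, led by Gpr17 with a log2 fold change of -1.06 ± 0.14 SE (edgeR adjusted p = 0.00546) and Tnr (a log2 fold change of -0.51 ± 0.07, edgeR adjusted p = 0.00592). Their summed level was 780 to 840 CPM in aged and 948 to 1090 CPM in young libraries, and none was at 0. The part of these markers in the result for Nkx2-2 was not tested.

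Nkx2-1, the homeodomain factor that specifies the ventral hypothalamus, stood at 34.3, 36.3 and 35.2 CPM in aged and at 23.5, 19.1 and 33.2 CPM in young libraries. The aged libraries lay close together, and young replicate 3 came near them. The difference did not pass (log2 fold change 0.48 ± 0.16 SE, edgeR adjusted p = 0.102), but passed in DESeq2 (adjusted p = 0.0330) and without young replicate 3 (0.74, edgeR adjusted p = 0.0197). Nkx2-4, a close relative of Nkx2-1 that neighbours Nkx2-2 on chromosome 2 (GRCm38.p6), had a log2 fold change of -0.03, with an interval from -0.41 to 0.35.

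Pou3f2, a POU-domain factor needed for the oxytocin, vasopressin and corticotropin-releasing hormone neurons of the paraventricular and supraoptic nuclei, fell. It stood at 23.8, 23.2 and 26.5 CPM in aged replicates 1, 2 and 3 and at 32.9, 36.2 and 33.5 CPM in young replicates 1, 2 and 3. The libraries of each age lay close together and the ages were clearly apart. The means were 24.5 ± 1.74 CPM and 34.2 ± 1.76 CPM (SD, n = 3 each), a 1.40-fold higher level in young (log2 fold change -0.48 ± 0.08 SE, edgeR adjusted p = 0.0135). The call was kept in 17 of 18 alternatives and lost without aged replicate 1 (-0.45, edgeR adjusted p = 0.0607).

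Sim1 and Otp, which act before Pou3f2 in the same neurons, were lower in 2 of 3 aged libraries. Otp stood at 41.5, 50.5 and 40.2 CPM in aged and at 56.4, 49.9 and 54.0 CPM in young libraries, so that aged replicate 2 fell within the young range. Sim1 had the same layout, at 11.7, 16.6 and 12.2 CPM in aged and 15.1, 16.9 and 17.1 CPM in young libraries. Both had a log2 fold change of -0.28 and did not pass (edgeR adjusted p = 0.107 for Otp and 0.228 for Sim1). Without aged replicate 2, both passed, at -0.38 (edgeR adjusted p = 0.0197) and -0.44 (0.0297). Of 4 peptide genes of these nuclei, Avp, vasopressin, rose (log2 fold change 0.60 ± 0.06 SE, edgeR adjusted p = 0.00248). Oxt, oxytocin, Crh, corticotropin-releasing hormone, and Trh, thyrotropin-releasing hormone, had -0.30, 0.69 and 0.26 and did not pass (edgeR adjusted p = 0.117, 0.0865 and 0.138).

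Of the 3 ventromedial factors, 0 passed in edgeR, DESeq2 or limma-voom, and 0 had an unadjusted p under 0.05. Nr5a1, the nuclear receptor that defines this nucleus, stood at 11.3, 10.9 and 11.1 CPM in aged and at 16.0, 9.71 and 12.1 CPM in young libraries. Fezf1, a zinc finger factor of the same neurons, stood at 19.3, 15.3 and 19.3 CPM in aged and at 25.8, 14.6 and 18.1 CPM in young libraries. For both, young replicate 1 was the highest and young replicate 2 the lowest of all 6 libraries, and the aged libraries lay between. Their log2 fold changes were -0.19 (interval -0.55 to 0.18) and -0.12 (-0.53 to 0.30), and 0.03 and 0.14 without young replicate 1. Nr0b1, a receptor-like repressor that partners Nr5a1, stood at 0.448, 0.935 and 1.04 CPM in aged and at 1.23, 0.919 and 1.45 CPM in young libraries, from 8 to 26 reads each. Aged replicate 1 was the lowest, the ages overlapped, and the log2 fold change of -0.57 ± 0.34 SE had a wide interval, from -1.33 to 0.19 (edgeR adjusted p = 0.322). Without aged replicate 1 it was -0.28. Of 6 marker genes of this nucleus (Adcyap1, Tafa1, Cbln1, Esr1, Gda, Sox14), 0 passed in edgeR, DESeq2 or limma-voom, with log2 fold changes from -0.48 (Esr1) to 0.20 (Sox14); 2 had an unadjusted p under 0.05, Cbln1 (-0.24) and Esr1. Adcyap1, Tafa1 and Gda had -0.13, -0.06 and 0.19.

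Of the 3 suprachiasmatic factors, 0 passed in edgeR, DESeq2 or limma-voom, and 0 had an unadjusted p under 0.05. Six3, a homeodomain factor of the anterior forebrain, stood at 34.1, 27.7 and 33.3 CPM in aged and 34.7, 29.9 and 31.2 CPM in young libraries (log2 fold change -0.01, interval -0.23 to 0.21). Its relative Six6 stood at 5.83, 5.92 and 6.29 CPM in aged and 7.38, 5.46 and 7.90 CPM in young libraries, with young replicate 2 below and the other young libraries above all aged ones (-0.20 ± 0.16 SE, interval -0.55 to 0.15, edgeR adjusted p = 0.449). Lhx1, which keeps the neurons of the circadian clock coupled, stood at 8.74, 14.7 and 8.71 CPM in aged and 11.8, 12.4 and 12.5 CPM in young libraries. Here aged replicate 2 was above every young library and the other aged libraries were below them; without aged replicate 2 the log2 fold change passed at -0.48 (edgeR adjusted p = 0.0245), against -0.19 with it (0.571). Of the genes that these neurons express, Vip, Nms, Prok2, Rorb and Rgs16 had log2 fold changes of -0.19, -0.41, 0.20, -0.22 and -0.18 and did not pass, and Avp, which they share with the paraventricular nucleus, rose as above.

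The arcuate and dorsomedial factors had a median log2 fold change of 0.25, and 0 of 6 passed in edgeR, DESeq2 or limma-voom (1 at an unadjusted p under 0.05). Isl1, a LIM-homeodomain factor of pro-opiomelanocortin neurons that is also made in striatal and cholinergic neurons, was that one. It stood at 23.7, 21.6 and 23.4 CPM in aged and 18.5, 17.9 and 19.9 CPM in young libraries, without overlap (log2 fold change 0.29 ± 0.08 SE, edgeR adjusted p = 0.0653). It passed without aged replicate 2 (0.34, edgeR adjusted p = 0.0412) and on log2(FPKM + 0.1) (limma adjusted p = 0.0489). Tbx3, a T-box factor that maintains peptide identity in arcuate neurons, stood at 9.25, 13.8 and 10.2 CPM in aged and 5.86, 11.0 and 10.3 CPM in young libraries. Young replicate 1 was the lowest and aged replicate 2 the highest. The log2 fold change of Tbx3 was 0.29 (interval -0.23 to 0.80), 0.06 without young replicate 1 and 0.10 without aged replicate 2.

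Hmx2 and Hmx3, neighbouring homeobox genes on chromosome 7 (GRCm38.p6) that specify growth hormone-releasing hormone neurons, had log2 fold changes of 0.52 (interval -0.09 to 1.14) and -0.17 (-0.61 to 0.28). Bsx, a homeodomain factor that acts on Npy and Agrp, had 0.21 (-0.15 to 0.56), and Prdm13, a factor of the dorsomedial nucleus, 0.01 (-0.42 to 0.45). Of 9 peptide and marker genes of these nuclei, Cartpt rose (0.32 ± 0.07 SE, edgeR adjusted p = 0.0248; lost in 6 of 18 alternatives) and Npvf fell (-1.34 ± 0.32, edgeR adjusted p = 0.0365; lost in 5 of 18). Agrp and Npy, the orexigenic peptides, had 1.59 and 0.86, Pomc -0.61, Th -0.51, Kiss1 -1.05, Ghrh -0.08 and Ppp1r17 0.12, none of which passed in edgeR (DESeq2 also called Agrp and Th; edgeR adjusted p from 0.0753 to 0.778).

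Of the 2 mammillary factors, 0 passed in edgeR, DESeq2 or limma-voom, and 0 had an unadjusted p under 0.05. Foxb1, a forkhead factor of the mammillary bodies, stood at 14.3, 19.99 and 13.4 CPM in aged and at 8.498, 14.9 and 14.4 CPM in young libraries, highest in aged replicate 2 and lowest in young replicate 1. Barhl1, a homeodomain factor of the posterior hypothalamus, stood at 1.79, 3.998 and 2.42 CPM in aged and at 4.22, 4.60 and 3.62 CPM in young libraries. The log2 fold changes were 0.34 ± 0.21 and -0.59 ± 0.27 SE (edgeR adjusted p = 0.345 and 0.196), and that of Foxb1 was 0.13 without young replicate 1 and 0.15 without aged replicate 2. Barhl1 passed without aged replicate 2 (log2 fold change -0.96, edgeR adjusted p = 0.0270). Of the genes listed for the mammillary and tuberomammillary nuclei, Nts, neurotensin, rose (0.66 ± 0.14 SE, edgeR adjusted p = 0.0251; lost in 4 of 18 alternatives). Hdc, which makes histamine, Slc18a2, Foxa1, Cck and Lmx1b had log2 fold changes of 0.35, -0.49, -0.45, -0.92 and -0.44 and did not pass.

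In the lateral hypothalamus, where Lhx9 is a factor of orexin neurons, Hcrt, the orexin precursor, fell (-0.82 ± 0.15 SE, edgeR adjusted p = 0.0161; lost without aged replicate 1 or 3). It stood at 106, 114 and 103 CPM in aged and 247, 164 and 162 CPM in young libraries, without overlap. Pdyn, prodynorphin, rose (0.45 ± 0.08 SE, edgeR adjusted p = 0.0186; lost in 3 of 18 alternatives). Pmch, melanin-concentrating hormone, and Nptx2 had -0.25 and -0.23 and did not pass.

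Tcf4, a basic helix-loop-helix E protein made in neurons and glia throughout the brain, fell by a small amount. It stood at 89.7, 90.2 and 90.6 CPM in aged replicates 1, 2 and 3 and at 104, 121 and 107 CPM in young replicates 1, 2 and 3. The aged libraries were nearly equal and all were below the young ones (log2 fold change -0.29 ± 0.07 SE, edgeR adjusted p = 0.0356). Tcf4 has the longest implied length of the 31, and with each library's trend of level on gene length removed from the fit its log2 fold change was -0.10 and it did not pass (edgeR adjusted p = 0.301). The call was also lost on both FPKM scales and without each library except aged replicate 2 (edgeR adjusted p from 0.0632 to 0.131 where lost), 8 of 18 alternatives in all.

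The other factors of several regions did not pass. Meis2, a homeodomain factor also made in striatum, stood at 53.1, 28.6 and 31.04 CPM in aged and at 43.7, 50.2 and 28.0 CPM in young libraries, with a similarly wide range in both ages. Zic1, a zinc finger factor of the septum and preoptic area, stood at 94.3, 51.0 and 78.4 CPM in aged and 72.7, 92.8 and 69.3 CPM in young libraries, lowest in aged replicate 2. Zic2 had the same order of libraries within each age, at 27.6, 17.4 and 22.3 CPM in aged and 25.3, 33.8 and 22.5 CPM in young libraries. The log2 fold changes were -0.11, -0.07 and -0.28, with intervals from -0.68 to 0.45, -0.51 to 0.36 and -0.69 to 0.13. Onecut2 and Onecut3, cut-homeodomain factors, had -0.20 and -0.38, with edgeR adjusted p of 0.254 and 0.410.

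The factors varied more between libraries of the same age than most genes. Their median within-age SD was 0.25 on the log2(CPM + 0.5) scale, against 0.11 over all 14702 tested genes. It was 0.12 over the 11588 tested genes between the lowest and the highest mean CPM of the factors. That range holds most tested genes, so level was not matched factor by factor. The SD ran from 0.07 for Isl1, 0.08 for Tcf4 and 0.09 for Pou3f2 to 0.43 for Onecut3 and 0.46 for Meis2. Aged replicate 2 had 1.90 times the mean of the other aged libraries for Barhl1, 1.68 times for Lhx1, 1.44 times for Foxb1, 1.42 times for Tbx3, 1.41 times for Bsx and for Prdm13 and 1.38 times for Sim1. It had 0.591 times that mean for Zic1 and for Onecut3, 0.644 times for Lhx9, 0.672 times for Lhx6 and 0.678 times for Meis2. It was the highest aged library for 12 of 31 factors and the lowest for 12, shares (38.7% each) near those over all tested genes (39.6% and 39.2%). Young replicate 2 was the lowest young library for 17 of 31 factors (54.8%), against 34.8% of all tested genes.

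**Figure D4:**
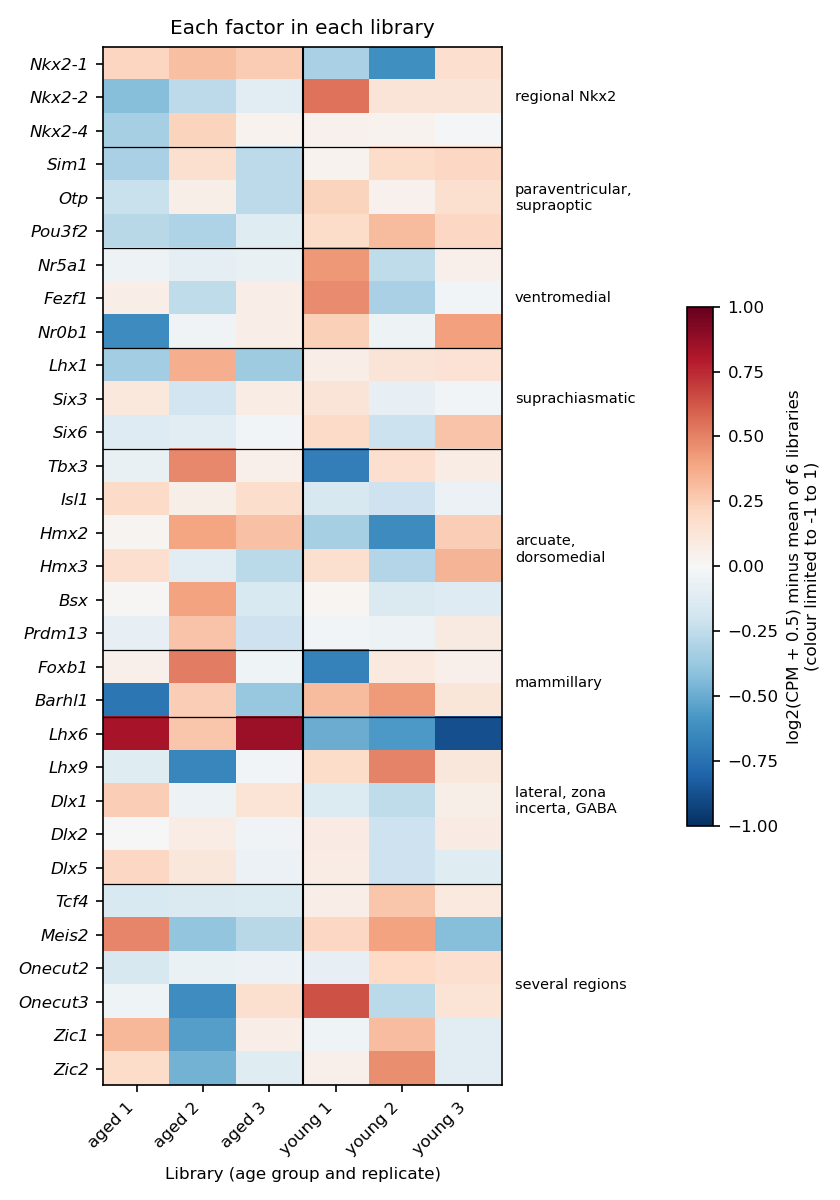
Level of each factor in each library as log2(CPM + 0.5) minus its mean over the 6 libraries (red higher, blue lower, colour limited to -1 to 1), with factors grouped by nucleus and a line between aged and young libraries. In aged replicate 2, Barhl1, Lhx1, Foxb1 and Tbx3 are higher and Zic1, Lhx9 and Meis2 lower than in aged replicates 1 and 3, and Lhx6 separates the ages.

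Other factors of hypothalamic development were counted from a list of 35, of which 32 were tested. Lhx8 and Rax were higher, 4 were lower, Pax6, Nr2f1 and Nr2f2 among them, and 26 did not pass; over the list, the median was -0.14 on the log2 scale and the summed level 769 to 806 CPM in aged and 841 to 910 CPM in young libraries. Pax6, a paired-box factor of dorsal neurons and the zona incerta, stood at 7.62, 6.75 and 6.29 CPM in aged and 13.3, 13.3 and 11.0 CPM in young libraries (-0.86 ± 0.13 SE, edgeR adjusted p = 0.00789). Nr2f1 and Nr2f2, nuclear receptors of neuronal identity, had -0.47 ± 0.09 and -0.44 ± 0.11 (edgeR adjusted p = 0.0181 and 0.0407). Rax, a homeodomain factor of tanycytes, had 1.35 ± 0.32 (edgeR adjusted p = 0.0372). Its level was low, at 2.19, 2.96 and 2.13 CPM in aged and 0.645, 1.49 and 0.723 CPM in young libraries. The calls for Pax6 and Lhx8 held in all 18 alternatives, while those for Nr2f1, Rax and Nr2f2 were lost in 2, 5 and 7 of 18.

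Markers of neighbouring regions and of other cell types were read in the same fit. Among those called, En1 stood at only 0.392, 0.675 and 0.115 CPM in aged libraries. Neurod6 stood at 0.617, 1.71 and 1.44 CPM there. Of 9 telencephalic factors tested, Cux2 and Neurod6 fell (log2 fold change -0.42 and -2.11; limma-voom called Cux2 only); of 6 thalamic genes, Plekhg1 and Tcf7l2 (-1.004 and -1.18; limma-voom called Plekhg1 only, and DESeq2 called Plekhg1, Lef1 and Prox1); and of 6 midbrain genes, En1 and Slc6a3 (-2.61 and -2.63; DESeq2 called both, and limma-voom 0 of the 6, of which 5 had an unadjusted p under 0.05 in edgeR). Of 11 striatal genes, whose sum was 233 to 340 CPM in aged and 250 to 274 CPM in young libraries, 0 passed in edgeR, 3 had an unadjusted p under 0.05 and DESeq2 called 1, Foxp1 (-0.46; Drd1 was next at 0.45). Of 4 pituitary genes tested, 0 passed in edgeR, DESeq2 or limma-voom and 1 had an unadjusted p under 0.05, Lhx3 (1.41; Gata2 was next at -0.24). Of 10 neuronal genes, whose sum was 6829 to 7132 CPM in aged and 7039 to 7954 CPM in young libraries, 0 passed with those tools and 1 had an unadjusted p under 0.05, Map2 (-0.21; Eno2 was next at 0.12). Of 8 myelin genes, with sums of 7058 to 7357 and 6407 to 8128 CPM, 0 passed in edgeR or limma-voom, while 2 had an unadjusted p under 0.05 and passed in DESeq2, Mog (-0.35) among them. Of 8 astrocyte genes, with sums of 2766 to 3747 and 4099 to 4347 CPM, 3 fell, led by Sox9 (-0.83) and Aqp4 (-0.70). Of 6 microglial genes, with sums of 251 to 287 and 260 to 266 CPM, P2ry12 fell (-0.42) and 5 did not pass. Of 6 endothelial genes, with sums of 304 to 355 and 250.1 to 305 CPM, Slc2a1 rose (0.87) and 3 fell, led by Cldn5 (-0.88).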

How the data were processed

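The authors deposited whole-number read counts and FPKM per gene for 6 libraries; FPKM equalled the counts scaled by library total and an implied gene length, within a relative tolerance of 1e-06, for 18228 genes. Per the submitters' processing notes, the tools were Trimmomatic, HISAT2, Cufflinks, HTSeq and DESeq, with genome build GRCm39. Which annotation, strand setting and rule for reads matching several genes applied is not given in the sources used here, so values of overlapping genes are uncertain; of 13 antisense or overlapping partners listed, Zic4 was in the table (log2 fold change 0.02). A stranded mRNA library kit was used, per the labels' protocols.

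Low counts were removed with edgeR's filterByExpr (a minimum of 10, and 15 in total), followed by TMM scaling and the quasi-likelihood test in edgeR 4.0.16 (R 4.3.3), aged against young, with no covariate. Alternatives used limma 3.58.1 and DESeq2 1.42.0. CPM is TMM-scaled, and standard errors (SE) and 95% intervals are those implied by the edgeR test. The biological coefficient of variation was 8.52%. The fit was also run on simulated counts, drawn independently for each gene with no outlying library. That run does not show how far single libraries move the calls here. The edgeR p-values set the difference between the ages against the spread between these mice, estimated with information shared across genes. The members and lists were chosen with earlier results of these data known. All 31 members were named; those that passed, and the one with the smallest adjusted p in each nucleus group, have values in every library. Other lists are given by counts, summed level and the 2 genes with the smallest adjusted p, and nucleus output genes in full. Some genes that this rule would name are not reported here. The older symbol Fam19a1 was read as Tafa1 through RefSeq synonyms.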

Additional observations from a re-analysis of the deposited data

How the results depend on the processing

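All 31 factors were refitted under 18 alternatives, giving 558 log2 fold changes: 529 stayed on the same side of the threshold, 21 lost a call, 8 gained one, and 0 called values reversed. In place of 1 factor higher, DESeq2 (with Nkx2-1) and limma-trend on log2(FPKM + 0.1) (with Isl1) each gave 2, and leaving out single libraries gave 1 to 2. In place of 3 lower, limma-trend on log2(FPKM + 1) and on log2(FPKM + 0.1) and removal of the gene length trend each gave 1, which was Pou3f2, and leaving out single libraries gave 0 to 6. Over all genes, 474 were higher and 535 lower; the FPKM scales with 1 and 0.1 added gave 616 and 622 higher and 293 and 303 lower, total counts alone 627 higher and 446 lower, removal of the length trend 356 lower, and leaving out single libraries 95 to 901 higher and 55 to 732 lower. The cause was not tested. With the replicate block, 1 factor was higher and 2 lower (Nkx2-2 was lost, edgeR adjusted p = 0.0621), and 523 genes were higher and 667 lower overall. The numbers were not taken as pairing, since same-numbered libraries had correlations of 0.10, 0.04 and -0.14 in their deviations from the age means. Among the 31 factors, few reads limit Nr0b1 (8 to 26 per library), Hmx2 (24 to 64) and Barhl1 (32 to 80).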
